A study of Homo sapiens with 6 samples.

Results

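The unfolded protein and ATF4 response genes described here are 38 genes from the 17081 rows of the deposited count table. They were chosen by symbol for their known roles, but with earlier results of these data known. They were divided into 5 branches: 4 ER stress sensors and factors, 13 ER chaperones and folding enzymes, 5 genes of ER-associated degradation, 8 genes of ATF4 and its stress regulators, and 8 genes of amino acid and serine supply. All 38 had counts in every library and all 38 passed the filter on low counts, so none was lost before the test. The libraries were made from tumour tissue of DMS114, a long-established line of human small cell lung cancer, grown in a sciatic nerve invasion model. The 3 proximal and 3 distal libraries came from tumour of the proximal and the distal invasive region, and the labels name no genotype, agent, time, host or animal age that would set the groups apart. The labels do not say whether the replicates came from separate animals, so each p-value is set against a spread among samples that may be only technical.

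The endoplasmic reticulum (ER) folds secreted and membrane proteins, and its unfolded protein response is run by 3 membrane sensors. ATF6 is cut to release a transcription factor that raises chaperone genes, ERN1 (IRE1α) splices the XBP1 transcript into the form that encodes an active factor, and EIF2AK3 (PERK) phosphorylates eIF2α, which lowers general translation while favouring that of ATF4. ATF4 can also be reached from amino acid shortage through other eIF2α kinases, so that chaperone genes and amino acid genes need not move together. Transcript counts show neither XBP1 splicing nor the activity of a sensor.

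Chaperone and folding genes of this response are known for ER stress response elements in their promoters, and ATF4 targets for C/EBP-ATF response elements (CARE). These sites are shown first because they are the textbook basis of the branches compared below. RefSeq promoter windows (GRCh38.p14, from 250 bases before to 50 after a RefSeq start of each gene, which can lie within the annotated gene, as for ASNS, SLC3A2, PDIA6 and CANX) were matched for 35 of the 38 genes. Both strands were searched for the ER stress response element ERSE (CCAAT and CCACG with 9 bases between them), for ERSE-II (ATTGG and CCACG with 1 base between them), for the CARE core TGATGNAA and for the XBP1 and ATF6 core TGACGTGG. ERSE was found in 7 of the 35 genes and in 25 of 27305 genes in the whole table (0.0916%). ERSE-II was found in 3 of 35 and in 0.0696% of genes, the CARE core in 4 of 35 and in 4.46% of genes, and TGACGTGG in 1 of 35 and in 0.927% of genes. The ERSE was defined from promoters such as these, so its presence in them is a description and no test. Each site is printed 5′ to 3′ on the strand that reads the motif, with the whole site in capitals and 5 flanking bases on each side in lower case.
HSPA5 ERSE (chr9:125241386-125241414, minus strand, 47 bases before the gene start): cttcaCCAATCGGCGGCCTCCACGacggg
HSP90B1 ERSE (chr12:103930211-103930239, plus strand, 175 bases before): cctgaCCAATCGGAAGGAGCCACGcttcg
HSP90B1 ERSE (chr12:103930316-103930344, minus strand, 70 bases before): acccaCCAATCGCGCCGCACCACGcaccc
CALR ERSE (chr19:12938379-12938407, minus strand, 206 bases before): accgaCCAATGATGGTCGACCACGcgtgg
PDIA6 ERSE (chr2:10812848-10812876, minus strand, 67 bases before): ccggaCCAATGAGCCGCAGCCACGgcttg
CRELD2 ERSE (chr22:49918549-49918577, minus strand, 61 bases before): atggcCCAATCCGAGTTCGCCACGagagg
XBP1 ERSE (chr22:28800598-28800626, minus strand, 33 bases before): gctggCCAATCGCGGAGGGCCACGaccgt
HYOU1 ERSE-II (chr11:119057269-119057289, plus strand, 68 bases before): tactcATTGGACCACGtccca
HYOU1 ERSE-II (chr11:119057375-119057395, plus strand, 174 bases before): ctgggATTGGACCACGtcacg
SDF2L1 ERSE-II (chr22:21642109-21642129, minus strand, 177 bases before): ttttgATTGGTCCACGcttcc
HERPUD1 ERSE-II (chr16:56932020-56932040, plus strand, 106 bases before): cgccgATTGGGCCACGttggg
HERPUD1 CARE core (chr16:56931961-56931978, minus strand, 168 bases before): cgggcTGATGCAAcccgc
CHAC1 CARE core (chr15:40953257-40953274, minus strand, 201 bases before): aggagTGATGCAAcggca
ASNS CARE core (chr7:97872464-97872481, minus strand, 60 bases before): aggcaTGATGAAActtcc

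The HERPUD1 window held both an ERSE-II and a CARE core. CANX also held an ERSE and SLC3A2 a CARE core that lay after its gene start, and the single TGACGTGG, in HYOU1, overlapped its ERSE-II at 174 bases before the start. In GENCODE release 29 the HSP90B1, CHAC1 and ASNS sites lie within annotated exons of those genes. The PDIA6 and CRELD2 sites lie within those genes but under no exon, and the sites of HSPA5, CALR, XBP1, HYOU1, SDF2L1 and HERPUD1 lie outside annotated genes. No match says only that these letters are not in the window.

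Total counts ran from 16171106 in distal 3 to 26116191 in proximal 1. As a check of the label, the small cell lineage factor POU2F3 was at or below 0.247 CPM (counts scaled to library size by TMM) in every library, NEUROD1 was at or below 0.618 CPM in 5 libraries and 6.47 CPM in distal 3, while SYP (synaptophysin) had 56.9 to 63.9 CPM and YAP1 167 to 187 CPM. In sum, the 20 skeletal muscle markers reached 27.7, 58.8 and 406 CPM in proximal 1 to 3 and 24.4, 47.5 and 2750.1 CPM in distal 1 to 3, and all 14 that were tested were highest in distal 3. Plasma cell markers, which would mark a professional secretory cell, were at 84.3 to 101 CPM in sum, mostly from SDC1 and FKBP11, with JCHAIN and MZB1 at or near 0. Distal 3 is therefore both the shallowest library and the one with the most muscle reads, and the main counts and differences that rest on it are also given without it.

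None of the 38 genes passed the test of distal against proximal tumour. In the quasi-likelihood test of edgeR, adjusted by Benjamini-Hochberg over the 13382 genes tested, 0 of the 38 genes were called at an adjusted p of 0.05, beside 0 genes (0%) over all genes. At an unadjusted p under 0.05 there were 0 of 38, beside 178 genes (1.33%) over all. DESeq2 and limma-voom called 0 of the 38 as well. Values were higher in distal for 14 genes and lower for 24, and the median log2 fold change (distal minus proximal) was -0.03 beside 0.00 over all genes. This balance rested on single libraries, with 21 higher and 17 lower without distal 3, and 8 higher and 30 lower without distal 1. The lowest unadjusted p was that of SLC3A2, at 0.0990, and every adjusted p was 0.9997. No change beyond 1.5-fold, up or down, was inside the 95% interval for 34 of the 38 genes, beside 69.1% of all genes tested and 91.1% of those with a mean of at least 10 CPM. At 2-fold this held for 37, all but VLDLR. The other 3 genes with intervals past 1.5-fold were CHAC1, SDF2L1 and DDIT3. In such pieces of tumour, fewer cells of a type and less RNA per cell cannot be told apart.

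**Figure D1:**
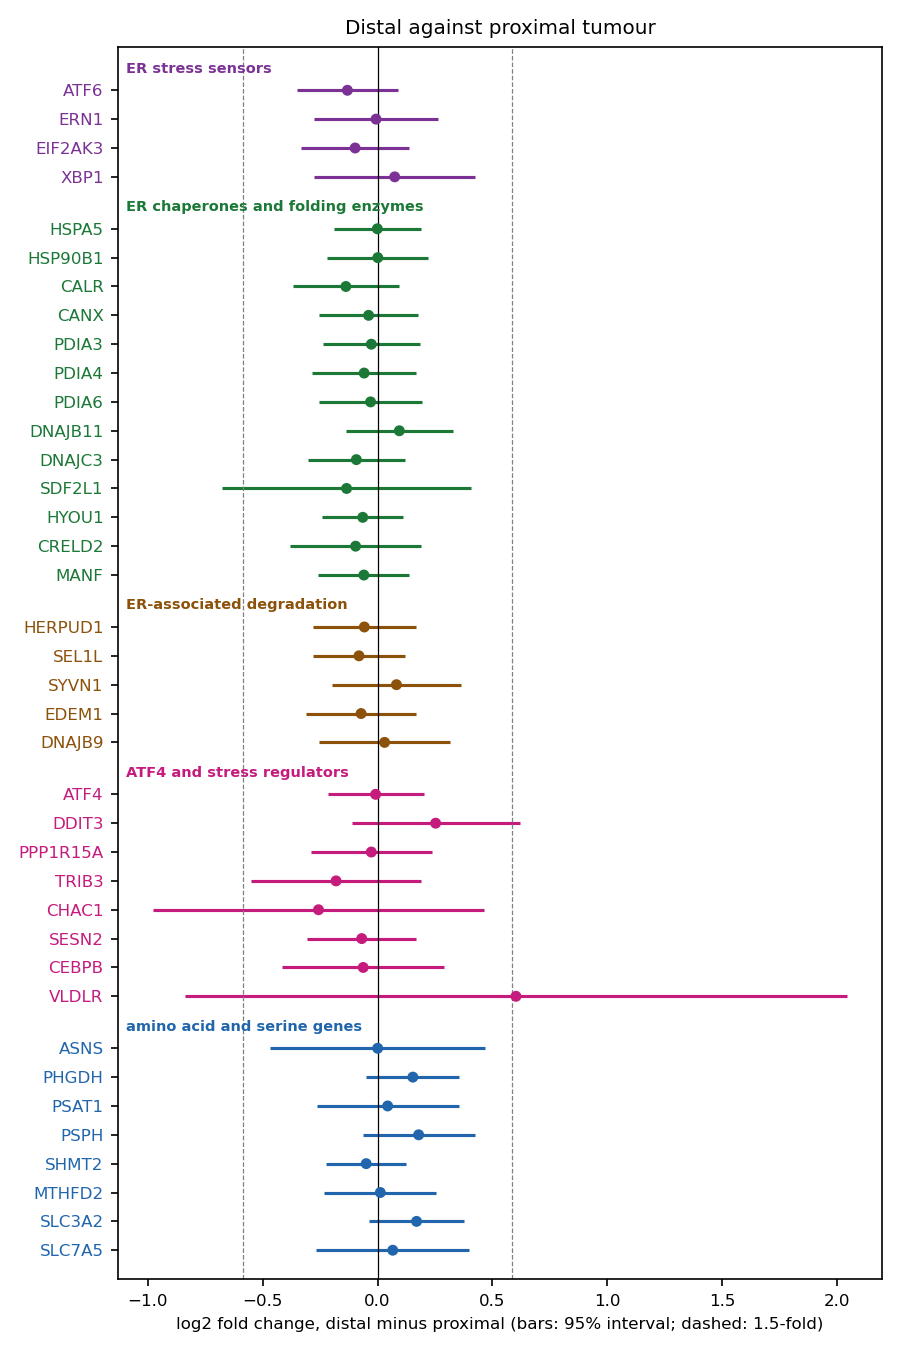
Log2 fold change of each gene, distal minus proximal, on the x axis (points) with its 95% interval (bars), genes listed by branch on the y axis and dashed lines at 1.5-fold. All 38 intervals span 0, and that of VLDLR, from -0.84 to 2.04, is the widest.

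The levels of these genes spanned a wide range within each library and a narrow one between libraries. Per kilobase of exon (union of GENCODE release 29 exons, since the annotation used for counting is not given in the sources used here), CALR had the highest mean level at 248 CPM per kilobase, followed by HSP90B1 (215), CANX (132), HSPA5 (122), PDIA6 (109) and PDIA4 (100.1). The branch medians were 96.7 CPM per kilobase for chaperones, 12.3 for amino acid and serine genes, 9.89 for sensors, 7.45 for ER-associated degradation and 6.63 for ATF4 and stress regulators. Within the ATF4 branch, ATF4 itself stood at 63.2 CPM per kilobase and its target CHAC1 at 1.52. VLDLR (1.03) and ASNS (1.34) had the lowest levels of all 38. Between libraries, SESN2 and SHMT2 varied least, with the highest library 1.10 and 1.09 times the lowest, and VLDLR most, at 4.24 times.

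**Figure D2:**
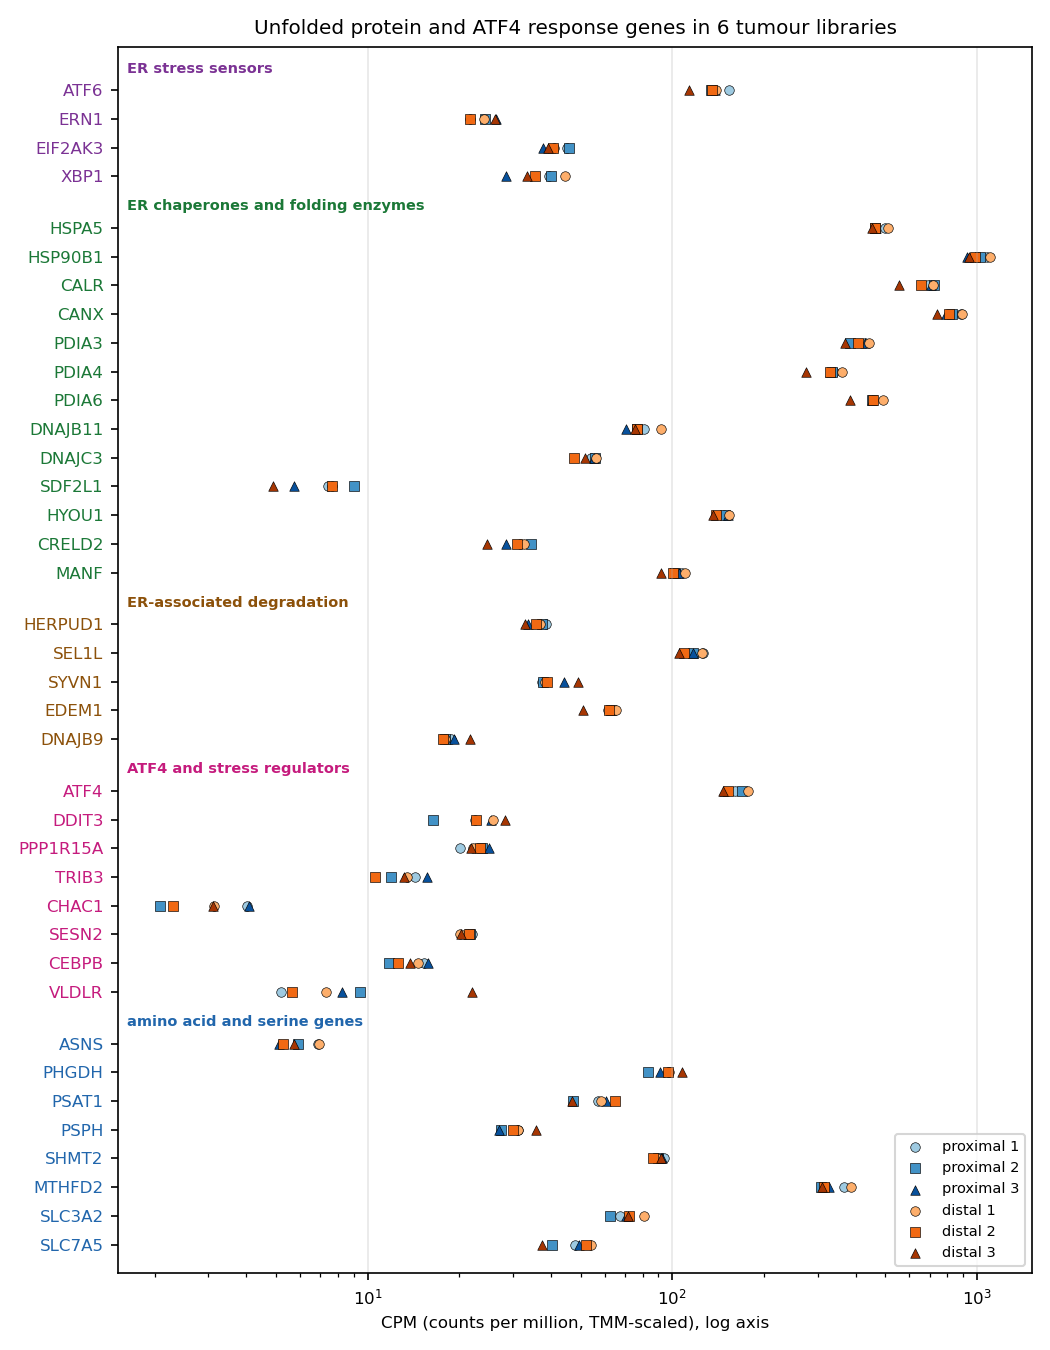
CPM of each of the 38 genes (x axis, log scale) in the 6 libraries (blue, proximal; orange and brown, distal), by branch. For most genes the 6 points lie close together, while VLDLR in distal 3, at 22.0 CPM, stands apart from the other 5 libraries.

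The sensors were read at similar levels in both groups. ATF6 (chromosome 1, 161766320 to 161964070) had 153, 134 and 139 CPM in proximal 1 to 3 and 139, 135 and 114 CPM in distal 1 to 3. The groups overlapped, and distal 3 was lowest. The ATF6 difference (log2) was -0.13 (SE 0.10, 95% interval -0.35 to 0.09), and -0.05 without distal 3. ERN1 (chromosome 17, 64039142 to 64130144) had 21.7, 24.3 and 26.4 CPM in proximal and 24.1, 21.8 and 26.3 CPM in distal libraries. The range of either group lay almost wholly within the other. The ERN1 difference was -0.01 (SE 0.12). EIF2AK3 (chromosome 2, 88556741 to 88628145) had 45.2, 45.8 and 37.7 CPM in proximal and 40.8, 40.5 and 39.0 CPM in distal libraries. Proximal 3 was the lowest of the 6, so the groups overlapped, with a difference of -0.10 (SE 0.11). XBP1 (chromosome 22, 28794560 to 28800569), both a target of the sensors and the factor that ERN1 activates, had 39.3, 39.9 and 28.4 CPM in proximal and 44.4, 35.5 and 33.3 CPM in distal libraries. It was highest in distal 1 and lowest in proximal 3, a range of 1.56-fold that was wider than that of the 3 sensors (1.21-fold to 1.35-fold). The XBP1 difference (log2) was 0.07 (SE 0.16, 95% interval -0.28 to 0.42), and it was -0.07 without proximal 3 and -0.06 without distal 1.

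Most chaperones and folding enzymes had their highest and their lowest value in 2 libraries of the same group, distal 1 and distal 3. HSPA5 (BiP, the main ER chaperone and a partner of all 3 sensors, chromosome 9, 125234853 to 125241343) had 497, 462 and 466 CPM in proximal and 511, 463 and 451 CPM in distal libraries. Its means were 475 ± 19.3 and 475 ± 31.9 CPM (SD, n = 3 each), with a 95% interval of the log2 fold change from -0.19 to 0.19. The highest and the lowest HSPA5 values were both in distal libraries. CALR (calreticulin, a lectin chaperone that also stores calcium, chromosome 19, 12938609 to 12944489) had 692, 721 and 706 CPM in proximal and 716, 654 and 555 CPM in distal libraries. Distal 3 lay below the other 5, and the difference of -0.14 (SE 0.10) was -0.04 without it. HSP90B1 (GRP94, an ER chaperone of the HSP90 family) had 930.2 to 1079 CPM in proximal and 941 to 1107 CPM in distal libraries, a difference of 0.00 (SE 0.10). CANX (calnexin, the membrane-bound partner of calreticulin) had 793 to 887 and 739 to 895 CPM. None of these ranges separated the groups.

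The thiol oxidoreductases PDIA3, PDIA4 and PDIA6, which form and rearrange disulfide bonds, had log2 fold changes of -0.03, -0.06 and -0.03. PDIA4 had 340.5, 335 and 329 CPM in proximal and 359, 329.8 and 275 CPM in distal libraries, and PDIA6 457, 452 and 452 against 491, 457 and 383 CPM. In both, the distal libraries held the highest and the lowest value, and the proximal SDs (5.68 and 2.67 CPM) were below the distal ones (42.7 and 55.0 CPM). Without distal 3 the differences of PDIA4 and PDIA6 were 0.04 and 0.06. DNAJC3 (p58IPK, a co-chaperone of HSPA5) was lowest in distal 2, with 54.1, 55.6 and 55.5 CPM in proximal and 56.0, 47.5 and 51.5 CPM in distal libraries, a log2 fold change of -0.09 (SE 0.10). SDF2L1, a soluble cofactor of ER chaperones, had 7.43, 9.05 and 5.75 CPM in proximal and 7.67, 7.62 and 4.88 CPM in distal libraries. Its low level, with 80 to 196 counts per library, and its spread gave a wide 95% interval, from -0.68 to 0.41, and its difference of -0.13 was 0.05 without distal 3. CRELD2, a secreted ER stress protein, had 31.7, 34.3 and 28.4 CPM in proximal and 32.6, 30.9 and 24.7 CPM in distal libraries, with a log2 fold change of -0.10 (SE 0.13) that was 0.01 without distal 3. HYOU1 (an HSP70-like exchange factor for HSPA5), MANF (a secreted ER stress protein) and DNAJB11 (an HSP40 co-chaperone) had log2 fold changes of -0.06, -0.06 and 0.09.

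Of the 13 chaperone genes, 10 were highest in distal 1 (13.0% of all genes tested were) and 10 were lowest in distal 3 (25.4% of all genes). All 13 lay above their own 6-library mean in proximal 1 and in distal 1, and 0 of 13 did so in distal 3. The branch score, the mean over genes of log2 CPM minus each gene's 6-library mean, was 0.06, 0.05 and -0.03 in the proximal and 0.12, -0.02 and -0.18 in the distal libraries. The group means differed by -0.05, with an SD of 0.05 among proximal and 0.15 among distal libraries, so the difference was within the spread of the distal libraries. With all 6 libraries 11 of 13 chaperone genes had lower values in distal. Without distal 3, 10 of 13 had higher values and the branch difference was 0.02, while without distal 1, 0 of 13 had higher values and it was -0.13. The low chaperone score and the high muscle sum (2750.1 CPM) fell in the same library. The fibroblast markers, mostly COL3A1, also had their lowest sum in distal 3 (4610 CPM, beside 5498 to 6202 CPM elsewhere), and the small cell lung cancer markers their highest (480.0 CPM, beside 400.4 to 425 CPM). Both lists were divided. Of 8 tested fibroblast markers, 4 were lowest in distal 3, while 3, with COL1A1 and LUM among them, lay above their own mean there. Their levels were also uneven over the 6 libraries. COL3A1 had 3725 to 5104 CPM, DCN 314 to 584 CPM and LUM 297 to 567 CPM. COL1A1 had 7.70 to 62.2 CPM, COL1A2 3.79 to 40.2 CPM and PDGFRA 0.244 to 1.28 CPM. Whether the fibroblast sum follows the content of fibroblasts was not tested. Of 12 tested small cell markers, 6 were highest in distal 3 and 2 lowest, YAP1 (167 CPM) and CHGA (6.35 CPM). The part of any of these sums in the chaperone score was not tested. Proximal 3, with the second highest muscle sum, had a chaperone score of -0.03.

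**Figure D3:**
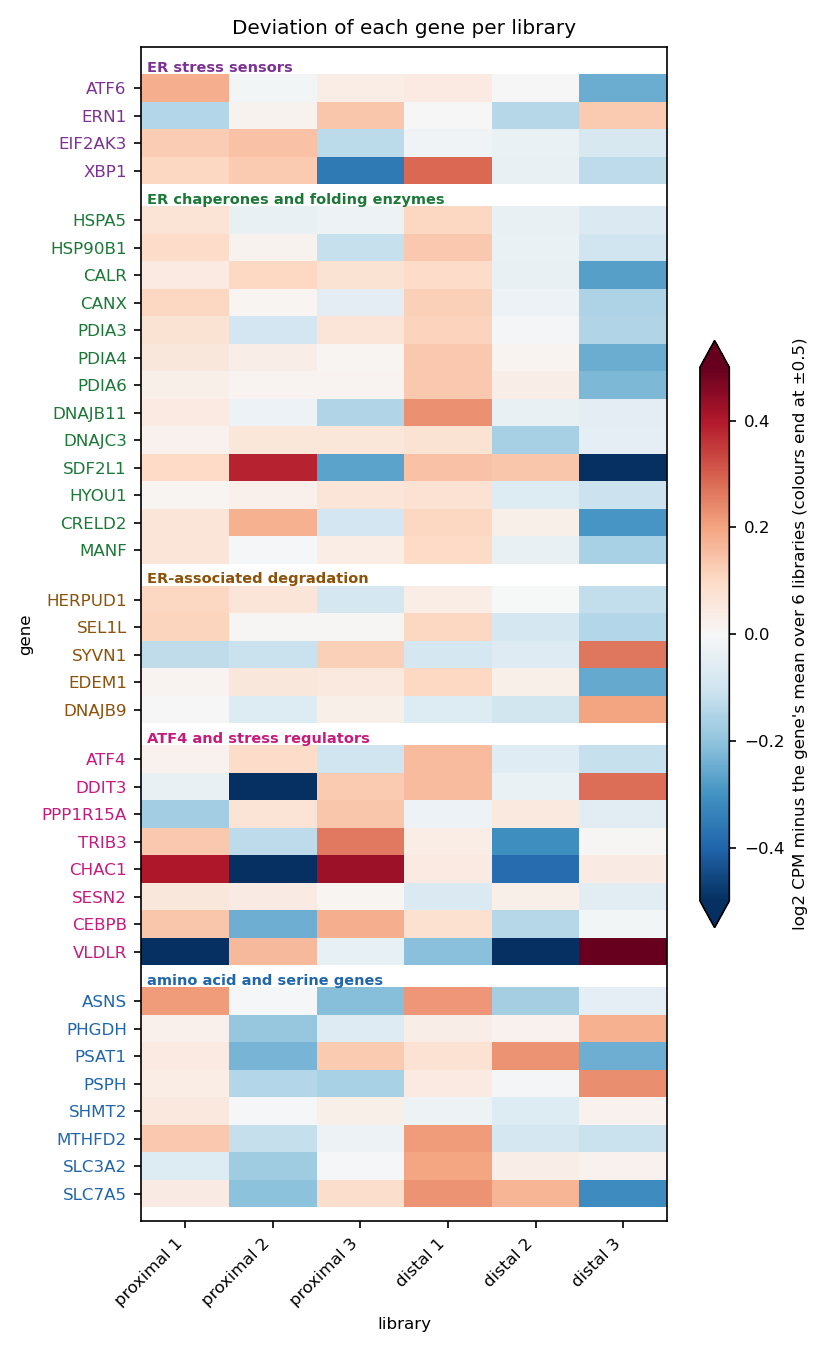
Log2 CPM of each gene minus its mean over the 6 libraries (colour, red above and blue below, ending at ±0.5), with libraries on the x axis and genes by branch on the y axis. Chaperone rows are all red or near white in distal 1 and blue in distal 3, whereas VLDLR, SYVN1 and DDIT3 are red in distal 3.

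The genes with an ERSE or ERSE-II printed above, together with CANX, were lowest in distal 3 in 8 of 10 cases and highest in distal 1 in 6 of 10. Their mean deviation was 0.12 in distal 1 and -0.20 in distal 3. The 25 matched genes with neither motif had 0.07 and 0.01 in those libraries, with 10 highest in distal 1 and 8 lowest in distal 3. Without VLDLR the other 24 had 0.08 and -0.04. Within the chaperone branch, the 8 genes with a motif and the 4 matched genes without one both had negative means in distal 3, at -0.22 and -0.13. Single genes overlapped, from -0.50 (SDF2L1, with 80 counts) to -0.07 (HSPA5) with a motif and from -0.25 (PDIA4) to -0.05 (DNAJC3) without. Distal 1 was highest for 5 of the 8 with a motif and for 4 of the 4 without. Of the 10 motif genes 8 had lower values in distal, and their median difference was -0.05 (log2), while without distal 3 there were 3 of 10 with lower values. This division follows the branches closely, so the motif and the branch cannot be told apart here.

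Genes of ER-associated degradation, which extracts misfolded proteins for the proteasome, had the narrowest branch score, from -0.04 in distal 2 to 0.02 in proximal 3. SEL1L (the scaffold of the HRD1 ubiquitin ligase) had 126, 117 and 117 CPM in proximal and 125, 109.5 and 105 CPM in distal libraries, with a log2 fold change of -0.08 (SE 0.09). SYVN1 (HRD1 itself) went the other way in distal 3, with 37.3, 37.7 and 44.3 CPM in proximal and 38.3, 38.9 and 49.1 CPM in distal libraries. Proximal 3 and distal 3 held its highest values, and the difference of 0.08 (SE 0.13) was -0.04 without distal 3. The exons of SYVN1 overlap those of FAU on the same strand and MRPL49 on the other, so its counts are uncertain. EDEM1, a lectin that delivers mannose-trimmed glycoproteins to degradation, had 61.3, 63.1 and 62.7 CPM in proximal and 65.2, 62.0 and 50.8 CPM in distal libraries, with a difference of -0.07 that was 0.03 without distal 3. HERPUD1, an ER membrane organiser of the ligase complex, had 32.9 to 38.5 CPM, and DNAJB9 (ERdj4, an HSPA5 co-chaperone that recognises misfolded substrates) had 17.6 to 21.7 CPM, highest in distal 3. The 5 genes had log2 fold changes between -0.08 and 0.08, 2 higher and 3 lower. The narrow branch score does not mean steady genes, since they offset each other in distal 3. There SYVN1 (0.27) and DNAJB9 (0.20) lay above their own means, and EDEM1 (-0.26), SEL1L (-0.15) and HERPUD1 (-0.12) below. The median SD of these genes over the 6 libraries (log2) was 0.109, beside 0.104 for the chaperones.

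ATF4 and its stress regulators showed the widest spread between libraries and no separation of the groups. ATF4 (chromosome 22, 39520559 to 39522686) had 161, 169 and 148 CPM in proximal and 177, 152 and 146 CPM in distal libraries. The groups overlapped, with means of 159 ± 10.8 and 158 ± 16.1 CPM (SD, n = 3 each) and a log2 fold change of -0.01 (SE 0.09, 95% interval -0.22 to 0.20). ATF4 is controlled mainly at translation, so its transcript level does not show its protein level. DDIT3 (CHOP, the pro-apoptotic factor downstream of ATF4, chromosome 12, 57516588 to 57520517) had 22.6, 16.3 and 25.4 CPM in proximal and 25.9, 22.7 and 28.1 CPM in distal libraries. Proximal 2 was the lowest by a wide margin and distal 3 the highest, while the other 4 libraries lay between 22.6 and 25.9 CPM. The DDIT3 difference (log2) was 0.25 (SE 0.16, 95% interval -0.11 to 0.62), 0.09 without proximal 2, 0.39 without proximal 3 and 0.18 without distal 3.

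VLDLR (the very low density lipoprotein receptor, a reported target of the PERK arm that muscle also expresses, chromosome 9, 2621787 to 2660056) had 5.18, 9.47 and 8.22 CPM in proximal and 7.31, 5.64 and 22.0 CPM in distal libraries. The value of distal 3 was above all others and the 2 remaining distal values lay within the proximal range. The log2 fold change was 0.60 (SE 0.58, 95% interval -0.84 to 2.04), and -0.23 without distal 3. Distal 3 also held the highest muscle sum, and whether the VLDLR reads came from muscle was not tested. CHAC1, a glutathione-degrading enzyme and ATF4 target, had 4.02, 2.08 and 4.09 CPM in proximal and 3.13, 2.31 and 3.11 CPM in distal libraries, from 45 to 104 counts. TRIB3, a pseudokinase that feeds back on ATF4, had 14.4, 12.0 and 15.7 CPM in proximal and 13.4, 10.5 and 13.1 CPM in distal libraries. CHAC1 and TRIB3 had their lowest 2 values in proximal 2 and distal 2, as did the transcription factor CEBPB (11.7 and 12.6 CPM, beside 13.7 to 15.8 CPM elsewhere). Their log2 fold changes were -0.26 (SE 0.32), -0.18 (SE 0.17) and -0.06 (SE 0.16), and that of CHAC1 was -0.51 without proximal 2. PPP1R15A (GADD34, which restores translation) and SESN2 (sestrin 2, a leucine sensor that restrains mTORC1) had 20.1 to 25.0 and 20.0 to 22.0 CPM.

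The score of the ATF4 branch was -0.02, -0.13 and 0.13 in the proximal and 0.02, -0.18 and 0.18 in the distal libraries. VLDLR alone set the value of distal 3, which was 0.01 without VLDLR, a choice made after its values were seen. Without VLDLR the branch stood at 0.08, -0.17 and 0.15 in the proximal and 0.05, -0.12 and 0.01 in the distal libraries, so both replicates numbered 2 were lowest.

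Of the 8 amino acid and serine genes, 7 had positive log2 fold changes, beside 6900 of all 13382 genes, and those of ASNS and MTHFD2 were 0.00 and 0.01. ASNS, MTHFD2, PSAT1 and SLC7A5 each turned sign when 1 library was left out, so that 3 of 8 were positive without proximal 2 and 4 of 8 without distal 1. SLC3A2 (CD98 heavy chain, the partner subunit of amino acid transporters, chromosome 11, 62856109 to 62888860) had 67.4, 62.4 and 70.3 CPM in proximal and 81.0, 72.4 and 71.7 CPM in distal libraries. It was the only one of the 38 genes whose groups did not overlap, on the higher side, where 3.20% of all genes tested were so divided. On the lower side there were 0 of 38, beside 3.09% of all genes. Its means were 66.7 ± 4.00 and 75.0 ± 5.19 CPM (SD, n = 3 each), with a log2 fold change of 0.17 (SE 0.09, 95% interval -0.04 to 0.38). SLC7A5 (LAT1, the large neutral amino acid transporter that pairs with it) had 47.8, 40.2 and 49.4 CPM in proximal and 54.2, 52.2 and 37.3 CPM in distal libraries. Distal 3 was the lowest and the other 2 distal libraries the highest, so the 2 subunits parted in distal 3. The SLC7A5 difference was 0.07 (SE 0.15), 0.22 without distal 3 and -0.03 without distal 1.

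The serine pathway showed the same small size of differences. PHGDH (the first enzyme of serine synthesis, chromosome 1, 119711934 to 119744215) had 96.8, 83.3 and 90.9 CPM in proximal and 97.3, 96.5 and 108 CPM in distal libraries. The lowest distal value lay just under the highest proximal one, and the log2 fold change was 0.15 (SE 0.09, 95% interval -0.05 to 0.36). PSAT1 (the second enzyme) had 57.1, 47.1 and 60.6 CPM in proximal and 58.4, 64.6 and 46.8 CPM in distal libraries, a difference of 0.04 (SE 0.14), with distal 3 lowest, and 0.16 without it. PSPH (the last enzyme) had 31.1, 27.4 and 27.1 CPM in proximal and 31.3, 30.1 and 35.6 CPM in distal libraries, a difference of 0.18 (SE 0.11), with distal 3 highest, and 0.10 without it. The 3 enzymes of 1 pathway therefore did not share an order of libraries. SHMT2 and MTHFD2, which pass the serine carbon into mitochondrial folate metabolism, had log2 fold changes of -0.05 (SE 0.08) and 0.01 (SE 0.11). SHMT2 had 86.3 to 93.9 CPM over all 6 libraries, whereas MTHFD2 had 307 to 387 CPM with its 2 highest values in proximal 1 and distal 1. ASNS (asparagine synthetase, a standard ATF4 target, chromosome 7, 97851677 to 97928441) had 6.89, 5.91 and 5.12 CPM in proximal and 6.92, 5.27 and 5.74 CPM in distal libraries. Its means were 5.97 ± 0.885 and 5.98 ± 0.847 CPM (SD, n = 3 each), from 94 to 178 counts, and the 95% interval of the difference ran from -0.47 to 0.47.

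The branches agreed in some libraries and parted in others. The amino acid branch score was 0.06, -0.14 and -0.03 in the proximal and 0.12, 0.01 and -0.03 in the distal libraries, a group difference of 0.07 against SDs of 0.10 and 0.08. Amino acid minus chaperone scores were 0.00, -0.19 and 0.00 in the proximal and 0.00, 0.03 and 0.15 in the distal libraries. Both branches were thus highest in distal 1 and level in proximal 1, while in proximal 2 the amino acid genes alone were low (0 of 8 above their means, beside 9 of 13 chaperones) and in distal 3 the chaperones were lower (0 of 13 above their means, beside 4 of 8 amino acid genes). The ATF4 minus amino acid difference ran from -0.19 in distal 2 to 0.22 in distal 3, and without VLDLR from -0.14 in distal 2 to 0.18 in proximal 3, with distal 3 at 0.05. The sensor branch, XBP1 included, scored 0.07, 0.07 and -0.08 in the proximal and 0.08, -0.05 and -0.08 in the distal libraries, with 4 genes behind each value. This score was above and below 0 in the same libraries as that of the chaperones, but not every gene in it was. ERN1 deviated from its own mean by -0.15 in proximal 1, 0.14 in proximal 3 and 0.13 in distal 3, against the chaperone score. The branch scores were built from genes chosen with earlier results of these data known and carry no test.

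**Figure D4:**
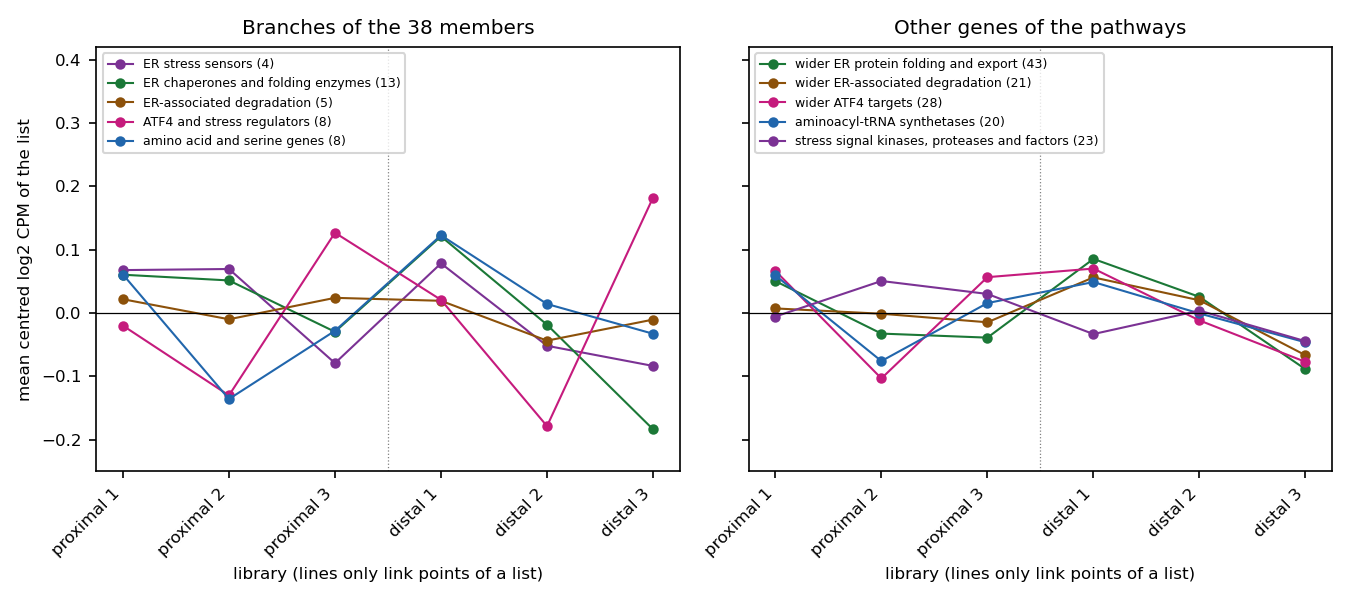
Mean centred log2 CPM of each list (y axis) in the 6 libraries (x axis), for the 5 branches on the left and for the other genes of the pathways on the right, with the number of genes in brackets. The chaperone score falls to -0.18 in distal 3 and the ATF4 branch stands at 0.18 there, with VLDLR included.

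Most of the spread within groups was larger than counting error. The SD between libraries of a group, on the log2 scale, was a median of 3.26 times the SD that counting alone would give over the 38 genes, beside 2.66 times over all genes tested and 3.11 times over genes whose mean reached 10 CPM. It was 11.7 times for HSP90B1, 11.1 times for CALR and 10.4 times for CANX, whose counts were the deepest (9086 to 27883 per library). SESN2 was the only one of the 38 with a spread below counting error, at 0.643 times, beside 4.97% of all genes, and SHMT2 was close to it at 1.16 times. ASNS (1.61 times), DNAJB9 (1.71) and HERPUD1 (1.79) followed.

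**Figure D5:**
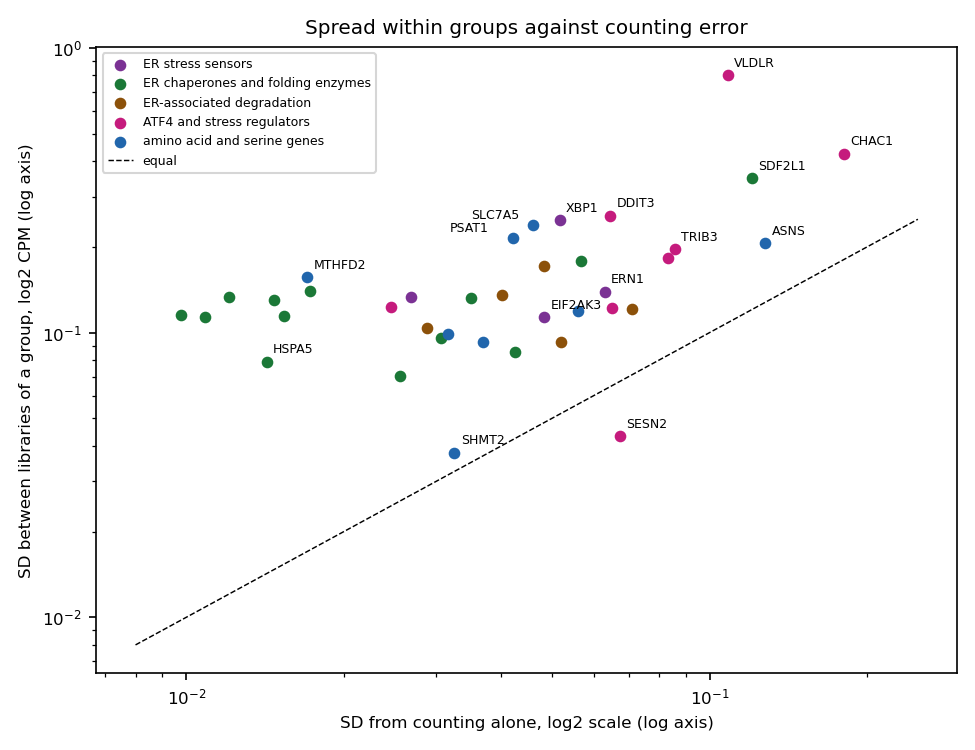
SD between libraries of the same group on the log2 CPM scale (y axis, log) against the SD from counting alone (x axis, log), 1 point per gene, coloured by branch, with a dashed line where they are equal. Only SESN2 lies under the line, and VLDLR, at an SD of 0.80, lies highest.

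Other genes of the same pathways, taken from lists that hold none of the 38, gave 0 calls by edgeR in either direction. In ER protein folding and export, 0 of 43 tested genes were called, 23 had higher and 20 lower values, and the lowest p were those of UGGT1 (the glycoprotein folding sensor) at -0.13 (SE 0.08) and ERO1A (the oxidase that recharges PDI enzymes) at -0.18 (SE 0.11). The score of this list was also highest in distal 1 (0.09) and lowest in distal 3 (-0.09), and 23 of its 43 genes were lowest in distal 3. Groups did not overlap for 1 of the 43 on the lower side, UGGT1, and for 1 on the higher. In the wider degradation list, 0 of 21 were called, 13 higher and 8 lower. EDEM3, a mannosidase of the EDEM family, had 114, 122 and 108 CPM in proximal and 104, 102 and 91.5 CPM in distal libraries. Its groups did not overlap, with a log2 fold change of -0.21 (SE 0.09, unadjusted p = 0.0389, adjusted p = 0.9997 by edgeR). Groups did not overlap for 2 of the 21 on the lower side and 1 on the higher, beside 3.09% and 3.20% of all genes tested. At an unadjusted p under 0.05 by edgeR there was 1 of 21, beside 1.33% of all genes. UBXN4 (an ER anchor of the extraction ATPase) was at 0.12 (SE 0.07).

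Among signal kinases, proteases and factors 0 of 23 were called, 5 higher and 18 lower, with a median of -0.06 and a range from -0.18 to 0.07. Over all genes tested, 6900 of 13382 had higher values. In distal 3, 9 of the 23 were lowest, beside 25.4% of all genes. Groups did not overlap for 2 of the 23 on the lower side and 0 on the higher, beside 3.09% and 3.20% of all genes. NCK1, an adaptor reported to bind sensors, was at -0.16 (SE 0.09) and EIF2AK4 (GCN2, the amino acid sensing kinase that also leads to ATF4) at -0.14 (SE 0.09). Among other ATF4 targets 0 of 28 were called, 16 higher and 12 lower. The widest spread was that of SLC7A11, with 50.8, 47.1 and 48.6 CPM in proximal and 44.1, 24.1 and 168 CPM in distal libraries. The source of its high value in distal 3 was not tested. Of the 28 genes, 5 were highest and 12 lowest in distal 3. DDIT4 (REDD1, a stress-induced brake on mTORC1) had 83.4, 119 and 86.9 CPM in proximal and 74.4, 53.4 and 87.1 CPM in distal libraries, with a log2 fold change of -0.43 (SE 0.21) that was -0.25 without proximal 2 or, at -0.26, without distal 2. EIF4EBP1, a translation inhibitor, was at 0.14 (SE 0.08). Of 20 aminoacyl-tRNA synthetases, many of which ATF4 induces, 0 were called, 11 higher and 9 lower, with AARS1 at -0.11 (SE 0.08) and IARS1 at -0.07 (SE 0.08). Both ATF4-linked lists were lowest in proximal 2, at -0.10 and -0.08, as was the amino acid branch.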

How the data were processed

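RNA was read by poly(A) sequencing in 3 proximal and 3 distal libraries. The authors deposited raw counts per gene symbol, made with bcl2fastq, Trimmomatic 0.39, STAR 2.7.3a and featureCounts 2.0.1 against GRCh38, per the submitters' processing notes, which also name DESeq2. Which annotation and strandedness were used for counting, what the host was and how its reads were handled is not stated in those notes or the labels. The exons of 11 of the 38 genes overlap another gene in the table, and 8 have named pseudogene copies in GENCODE that the table does not list, so reads of these genes may be split or shared.

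Of 17081 genes, 13382 passed filterByExpr. Counts were scaled by TMM and tested, distal against proximal, with edgeR 4.0.16 in R 4.3.3 (robust quasi-likelihood test, 2-sided, Benjamini-Hochberg adjustment at 0.05). Standard errors are the log2 fold change over the square root of F. Scores used log2 CPM with a prior count of 1. Members and lists were chosen with earlier results of these data known. Values in every library are given for ATF6, ERN1, EIF2AK3, XBP1, HSPA5, ATF4, DDIT3, ASNS, PHGDH and, in each branch, for the 2 genes with the lowest p and the 2 with the largest SD over libraries, and the 2 genes with the lowest p are named from each wider list. Values of PDIA4, PDIA6, PSPH, CEBPB and SLC7A11 were added after they were seen. Alternatives were RLE, upper-quartile and total-count scaling, other filters, DESeq2 1.42.0, limma-voom (limma 3.58.1), a replicate block, a prior count of 3, medians over genes and leaving out libraries. Leaving out both replicates numbered 3, and scores without VLDLR, were added after seeing the data. The scripts were tested on simulated data with known fold changes.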

Additional observations from a re-analysis of the deposited data

How the results depend on the processing

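With 3 libraries a group, 0 of the 38 genes were called under any alternative, and their adjusted p-values ran from 0.998 to 1.00. Over all genes, DESeq2 called 1 (EDIL3), as did edgeR without distal 1, so that leaving out 1 library gave 0 to 1. Of the 38 genes, 15 kept 1 sign throughout and 34 kept it under the 3 other scalings, which moved the median of all genes by at most 0.02. Signs turned, all near 0, for ERN1 (0.0081 with upper-quartile scaling, 0.0023 with totals), HSPA5 (0.013, 0.0080 and, with the 1 CPM filter, 0.0021), ATF4 (0.0053 and 0.00072), HSP90B1 (-0.0042 without a filter) and ASNS (-0.00037 with RLE, -0.0048 without a filter, -0.00086 with DESeq2, -0.0055 with limma-voom). Without both replicates numbered 3, HSPA5 was at 0.020, HSP90B1 at -0.0069, PDIA3 at 0.061, PDIA4 at 0.028, PDIA6 at 0.061, MANF at 0.0030, EDEM1 at 0.030, DNAJB9 at -0.049, PPP1R15A at 0.060, CEBPB at 0.0084, VLDLR at -0.17 and ASNS at -0.073, and SLC7A5 and SLC3A2 had unadjusted p-values of 0.0351 and 0.0385. The cause was not tested. An unadjusted p under 0.05 by edgeR was found in that setting for 2 of the 38 genes and for 459 of all 13399 genes tested. With medians over genes, the degradation branch difference was -0.066 beside -0.024. Leaving out 1 library at a time gave branch differences of -0.09 to -0.01 for sensors, -0.13 to 0.02 for chaperones, -0.04 to -0.01 for degradation, -0.07 to 0.11 for ATF4, 0.02 to 0.11 for amino acid genes and 0.06 to 0.16 for amino acid minus chaperone. It gave ERN1 -0.084 to 0.063, XBP1 -0.067 to 0.16, HSPA5 -0.061 to 0.035, HSP90B1 -0.073 to 0.050, CANX -0.12 to 0.026, PDIA3 -0.098 to 0.038, PDIA4 -0.15 to 0.042, PDIA6 -0.11 to 0.065, DNAJB11 -0.0067 to 0.14, SDF2L1 -0.29 to 0.045, CRELD2 -0.18 to 0.014, MANF -0.13 to 0.0021, SYVN1 -0.041 to 0.17, EDEM1 -0.15 to 0.027, DNAJB9 -0.069 to 0.082, ATF4 -0.098 to 0.044, PPP1R15A -0.12 to 0.038, CEBPB -0.19 to 0.015, VLDLR -0.23 to 0.93, ASNS -0.12 to 0.11, PSAT1 -0.065 to 0.16, MTHFD2 -0.10 to 0.080 and SLC7A5 -0.035 to 0.22. Same-numbered libraries had deviations correlated at 0.36, -0.11 and 0.18, and the labels do not say whether equal numbers mark a shared source, so no pairing was assumed; 2 of 3 proximal and 2 of 3 distal libraries correlated best with their own number. With the replicate number as a block, 0 genes were called and 286 had an unadjusted p under 0.05, and no sign among the 38 turned.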
